A study of Homo sapiens with 3 samples.

Results

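Extracellular ATP and adenosine are read by 3 receptor families, and 10 genes of these families and of the pannexins were followed here in HepG2, a human hepatocellular carcinoma line. They were chosen by symbol: P2RX7, P2RX4 and P2RX5, P2RY2, P2RY6 and P2RY11, ADORA2A and ADORA2B, and PANX1 and PANX2, out of 62680 rows in the deposited table of expected counts. The cells, wild type and grown in DMEM with 10% fetal bovine serum, received A740003 at 20 µM, A438079 at 20 µM, or PBS as the control, and 1 mRNA library was made per treatment after 48 h. Per the labels, each compound is a P2X7 antagonist. Which solvent carried them was not stated there, and an effect of the solvent cannot be told apart from one of the compounds. HepG2 is a tumour line in culture, without the macrophages in which P2X7 is best known.

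P2X receptors are ATP-gated cation channels. The P2Y receptors followed here are G protein-coupled receptors for ATP, UTP or UDP. Adenosine receptors bind the nucleoside that remains once ATP has been broken down outside the cell. Pannexins form large-pore channels, and PANX1 lets ATP out of cells, where it can reach these receptors. In liver, nucleotides released by hepatocytes raise intracellular calcium through P2Y receptors, while P2X7 is best known for driving the NLRP3 inflammasome in macrophages.

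Library totals were 19735540 (A740003), 19606723 (A438079) and 19375462 (PBS) expected counts. All 9 hepatocyte and HepG2 markers looked up were at 1 CPM or more in every library (CPM are counts scaled for library size, and 1 CPM was 19.39 to 19.91 counts). Of the macrophage markers, CD163, ITGAM, CSF1R and MARCO were at 0 in all 3 libraries and CD14 was at 0.151 to 0.413 CPM, while CD68, a lysosomal gene, was at 31.7 to 39.1 CPM. PTPRC, the pan-leukocyte marker, was at 0 in all 3. Since each treatment was 1 library, no difference has a replicate check and none was tested; every interval below covers counting error only. In bulk RNA, fewer cells that express a gene and less RNA per cell cannot be told apart.

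Most of the 10 genes were at a low level, and PANX2 was the one called lower with both compounds: it had 129 counts with PBS, 34 with A740003 and 41 with A438079. P2RY2 was called lower with A740003 and ADORA2A with A438079, and neither call held under every way of counting. P2RX7, the target gene of both compounds, had 2 counts in each library. ADORA2A, P2RX5 and P2RY11 share exons with readthrough rows, and their ratios moved when those counts were added.

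Among the 10 genes, 8 reached a mean of 1 CPM over the 3 libraries, the limit for being compared, and P2RX7 and P2RY11 did not. P2RX5, at a mean of 1.004 CPM, passed only with its counts rounded to whole numbers. A gene was called lower or higher when its ratio of scaled counts was at least 1.5-fold from 1 and the exact conditional binomial 95% interval of the ratio excluded 1. In the A740003 library, PANX2 and P2RY2 were lower and no member was higher. Of all 12270 genes compared, 10.7% were called lower and 3.14% higher in that comparison. In the A438079 library, PANX2 and ADORA2A were lower and none was higher, beside 9.44% lower and 1.63% higher of all genes. Among the 6964 genes between 1 and 30 CPM, the range in which the 8 genes lie, 17.5% were lower and 5.07% higher with A740003, and 15.8% were lower and 2.76% higher with A438079. With 8 genes, 2 calls are too few to set the family apart from those shares, and no test of that was made. The median log2 ratio of the 8 genes was -0.21 with A740003 and -0.49 with A438079, against 0.00 and -0.00 over all genes compared. Of the compared genes with a known GC content, 49.8% had a log2 ratio below 0 with A740003 and 50.3% with A438079. With each compound, 7 of the 8 members had a ratio below 1. This became 6 with both by FPKM (the authors' counts scaled for gene length and library size) or with readthrough rows added, 6 with A438079 under upper quartile scaling, and 6 with A740003 once a trend with GC content and length, given with PANX2, was removed.

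**Figure D1:**
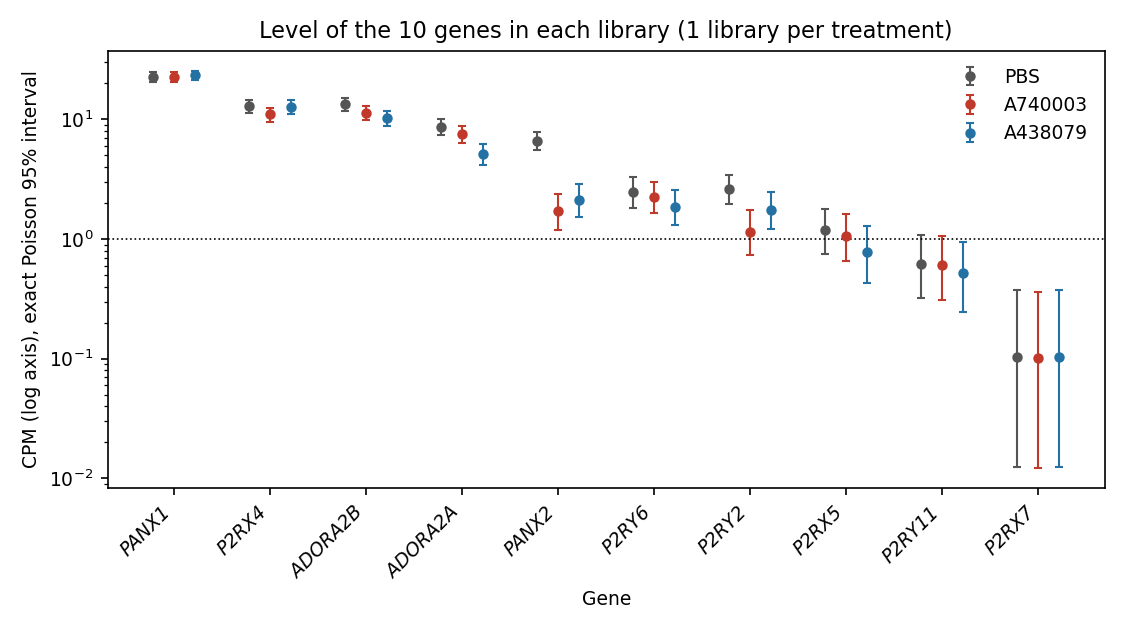
Level of each of the 10 genes in CPM on a log axis, in the PBS, A740003 and A438079 libraries; bars are exact Poisson 95% intervals and the dotted line is 1 CPM. PANX2 stands apart with PBS at 6.64 CPM and the antagonist libraries at 1.71 and 2.11 CPM, and P2RX7 lies near 0.1 CPM in all 3.

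P2RX7 (ENSG00000089041; chromosome 12, 121132819 to 121188032, plus strand, with all gene coordinates from GENCODE 29, GRCh38) encodes the channel that both compounds are directed at. Its 2 counts in each library gave 0.1004 CPM with A740003, 0.103 with A438079 and 0.103 with PBS, below the 0.151 to 0.155 CPM that 3 counts are worth. The deposited FPKM was 0.04, 0.03 and 0.02 in the same order. The 3 libraries overlap fully. The ratio over PBS was 0.975 with A740003, with an interval of 0.0707 to 13.5, and 1.002 (0.0726 to 13.8) with A438079. With 2 counts in the PBS library, no lower count, not even 0, could have given an interval below 1, and a higher level would have needed at least 10 counts. A difference in P2RX7 was therefore not detectable at this depth unless it was a rise of 4.88-fold with A740003 or 5.01-fold with A438079. P2RX1 had 2 counts in the A740003 library and 0 in the other 2 libraries.

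Promoter sequences are given for the gene at the floor and for the most counted member. The windows below lie before the RefSeq start on GRCh38.p14, with the plus strand printed and capitals marking the GC box GGGCGG or its complement CCGCCC. They are chr12:121132626-121132818 for P2RX7, shortened where GENCODE 29 exons begin, and chr11:94128591-94128840 for PANX1.
P2RX7: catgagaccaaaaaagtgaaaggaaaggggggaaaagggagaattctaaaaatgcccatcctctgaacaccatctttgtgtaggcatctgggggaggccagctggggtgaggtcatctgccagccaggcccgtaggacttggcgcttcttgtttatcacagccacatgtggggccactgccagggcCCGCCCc
PANX1: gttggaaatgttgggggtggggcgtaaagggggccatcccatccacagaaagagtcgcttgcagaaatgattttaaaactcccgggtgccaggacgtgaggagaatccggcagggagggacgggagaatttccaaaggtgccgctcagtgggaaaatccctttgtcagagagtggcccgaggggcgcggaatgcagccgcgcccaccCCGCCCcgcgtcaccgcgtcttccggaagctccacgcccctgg
Over the 250 bases before the start, the P2RX7 window held 4 CG dinucleotides and the PANX1 window 19, against a median of 11 in 35116 such windows of the RefSeq table. Each of these windows held 1 GC box, searched as GGGCGG on both strands, a motif found in 42.6% of all windows. The windows of P2RX4 and ADORA2B, which lie largely or wholly within annotated exons and are not printed, held 27 and 33 CG dinucleotides and 3 and 2 GC boxes. The P2RY11 window, also within exons, held 3 CG dinucleotides and no GC box. A match or a CG count is a description of letters, and its relation to expression level was not tested. The table held a window for 5 of the 10 genes.

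P2RX4 (ENSG00000135124; chromosome 12, 121209857 to 121234106, plus strand) lies next to P2RX7 and was the P2X gene with the highest level. It encodes an ATP-gated channel found at the surface and in lysosomes. It had 219 counts with A740003, 247 with A438079 and 249 with PBS, or 10.998, 12.7 and 12.8 CPM. The A740003 library was the lowest, and its interval of 9.59 to 12.6 CPM overlapped the 11.3 to 14.5 CPM of PBS. The ratio of A740003 over A438079 was 0.863 (0.716 to 1.04). A count of 211 or fewer with A740003 would have been needed for an interval below 1.

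P2RX5 (ENSG00000083454; chromosome 17, 3672199 to 3696404, minus strand) encodes a further ATP-gated channel. Its row held expected counts of 20.73, 14.51 and 23.06 with A740003, A438079 and PBS, and the lowest was with A438079. Its ratio over PBS was 0.891 (0.469 to 1.68) with A740003 and 0.653 (0.317 to 1.31) with A438079. The readthrough P2RX5-TAX1BP3, which joins P2RX5 to its neighbour TAX1BP3 and shares 41.6% of the P2RX5 exon bases, moved the other way. Its row held 29.21, 36.80 and 11.78 expected counts, so it was called higher with both, at 2.36 times PBS (1.17 to 5.07) and 3.09 times (1.58 to 6.51). Summed, the 2 rows gave 50, 51 and 35 counts, which for A740003 over PBS was 1.39 (0.887 to 2.21) and for A438079 over PBS 1.46 (0.931 to 2.31). The direction for P2RX5 thus turned with the choice of rows, and neither interval of the sum excluded 1. The readthrough also covers TAX1BP3, whose own row had ratios over PBS of 0.868 (0.712 to 1.06) and 0.703 (0.568 to 0.869). All 3 rows together gave 0.941 times PBS (0.786 to 1.13) and 0.808 times (0.668 to 0.975).

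**Figure D2:**
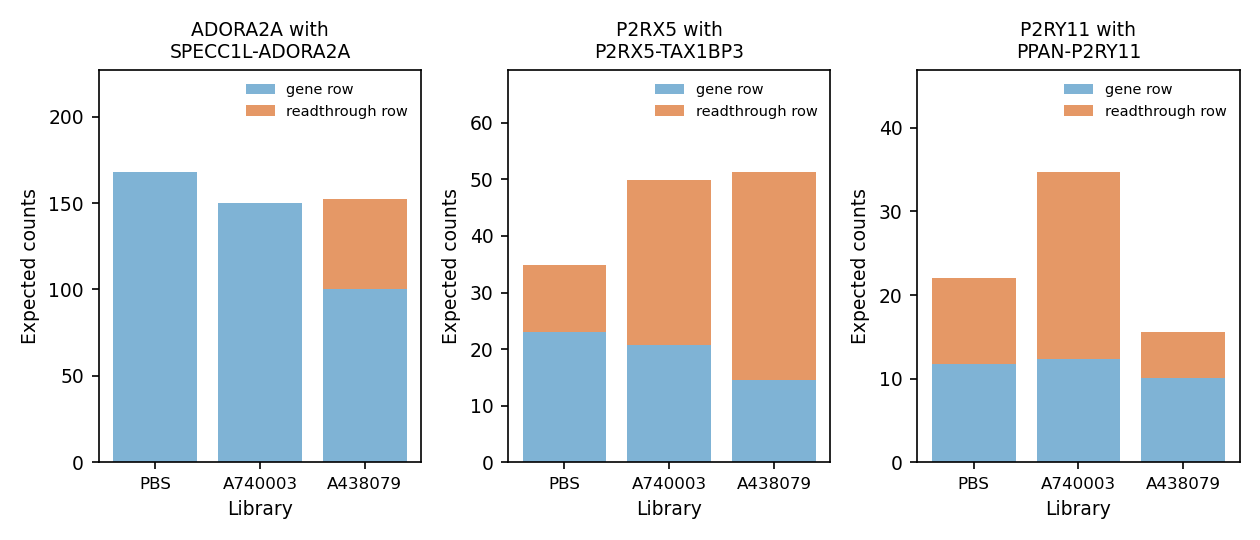
Expected counts of ADORA2A, P2RX5 and P2RY11 (blue) stacked with those of the readthrough row that shares their exons (orange), by library. SPECC1L-ADORA2A holds counts in the A438079 library alone, and the sum for ADORA2A is 152, 150 and 168 with A438079, A740003 and PBS.

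P2RY2 (ENSG00000175591; chromosome 11, 73218298 to 73236352, plus strand) encodes a receptor for ATP and UTP that raises calcium through Gq. It had 23 counts with A740003, 34 with A438079 and 51 with PBS, or 1.16, 1.75 and 2.63 CPM. The A740003 library was the lowest and its interval of 0.732 to 1.73 CPM did not overlap the 1.96 to 3.45 CPM of PBS, while that of A438079 (1.21 to 2.45 CPM) overlapped both. The ratio over PBS was 0.440 (0.257 to 0.733) with A740003, called lower, and 0.668 (0.420 to 1.05) with A438079, which was not. The antagonists themselves differed by a ratio of 0.659 (0.370 to 1.15), so a difference between them was not shown. By FPKM the order changed: 0.52 with A740003, 0.78 with A438079 and 0.65 with PBS. The transcript length implied by dividing counts by FPKM was 2266 and 2228 nt in the antagonist libraries and 4050 nt with PBS. By FPKM at a pseudocount of 0.1 the ratios were 0.827 and 1.17, and P2RY2 was not called with either compound.

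P2RY6 (ENSG00000171631; chromosome 11, 73264505 to 73298617, plus strand), a UDP receptor gene also coupled to Gq, lies next to P2RY2. It had 45, 36 and 48 counts with A740003, A438079 and PBS, and the 3 intervals overlapped. Its ratio over PBS was 0.914 (0.595 to 1.40) and 0.751 (0.474 to 1.18). Its FPKM was 1.02, 0.97 and 1.65, which put it past 1.5-fold lower with both on that scale at a pseudocount of 0.1.

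P2RY11 (ENSG00000244165; chromosome 19, 10111538 to 10115372, plus strand) encodes an ATP receptor that couples to both Gq and Gs. Its row held 12.34, 10.10 and 11.77 expected counts with A740003, A438079 and PBS, a mean of 0.579 CPM, and the 3 libraries overlapped. A count of 3 or fewer, about 0.244 or 0.2505 times PBS, would have been needed to show a lower level. The readthrough PPAN-P2RY11, which covers 50.02% of the P2RY11 exon bases, held 22.38, 5.52 and 10.31 expected counts. Its sum with P2RY11 stood at 1.55 times PBS (0.885 to 2.78) with A740003, at 0.729 times (0.358 to 1.45) with A438079, and at 2.13 (1.15 to 4.12) for A740003 over A438079. That sum can also hold reads of PPAN, a ribosome assembly gene with 498, 530 and 483 counts. With PPAN added, A740003 over A438079 was 0.9504 (0.842 to 1.07).

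ADORA2A (ENSG00000128271; chromosome 22, 24417879 to 24442360, plus strand) encodes an adenosine receptor that raises cAMP through Gs. Its row held 150 counts with A740003, 100.20 with A438079 and 168 with PBS, so that the A438079 library was low. The interval there, 4.197 to 6.27 CPM, lay below those of A740003 (6.38 to 8.84) and PBS (7.39 to 10.1). The same A438079 library held 51.94 expected counts for SPECC1L-ADORA2A, a readthrough from the upstream gene SPECC1L that shares 56.8% of the ADORA2A exon bases, and the other libraries held 0. Summed, the 2 rows gave 150, 152 and 168 counts, and the ratio of A438079 over PBS moved from 0.596 (0.461 to 0.768) to 0.906 (0.723 to 1.14). The ratio of A740003 over A438079 moved from 1.46 (1.13 to 1.90) to 0.961 (0.762 to 1.21). No interval of the sums excluded 1. The readthrough row can also hold reads of SPECC1L, a cytoskeletal gene with 2012, 1806 and 1566 counts, and how its reads divide between the genes was not tested. With SPECC1L added as well, the ratio over PBS was above 1, at 1.22 with A740003 and 1.13 with A438079. SPECC1L held most of the counts in those sums, 1806 of 1958 with A438079 and 1566 of 1734 with PBS. Its own ratios over PBS were 1.25 with A740003 and 1.16 with A438079. No counts fell on ADORA2A-AS1, the gene that overlaps it on the other strand.

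ADORA2B (ENSG00000170425; chromosome 17, 15944917 to 15975746, plus strand) encodes the adenosine receptor of lower affinity, also coupled to Gs. It had 226 counts with A740003, 198 with A438079 and 260 with PBS, all whole and with no other gene on its exons. The A438079 library was lowest, with an interval of 8.84 to 11.7 CPM just below the 11.8 to 15.1 CPM of PBS. Its ratio over PBS was 0.763 (0.631 to 0.921) with A438079 and 0.848 (0.706 to 1.02) with A740003. The interval with A438079 excluded 1, but the ratio did not reach 1.5-fold. The antagonists differed by a ratio of 1.11 (0.914 to 1.352).

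PANX1 (ENSG00000110218; chromosome 11, 94128928 to 94181972, plus strand) encodes the pannexin that releases ATP and was linked to P2X7 as a pore partner. It had 453, 452 and 438 counts for A740003, A438079 and PBS, and 8.86, 8.87 and 8.78 FPKM. The intervals overlapped almost fully, and the ratio over PBS was 1.01 (0.883 to 1.15) and 1.03 (0.905 to 1.18). With its counts, a difference of 0.868 times with A740003 or 0.869 times with A438079 would have given an interval below 1.

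PANX2 (ENSG00000073150; chromosome 22, 50170731 to 50180294, plus strand) encodes a pannexin found mainly on membranes within the cell. Its counts were 34 with A740003, 41 with A438079 and 129 with PBS, all whole, and no other annotated gene lies on its exons. In CPM these were 1.71 (1.18 to 2.39), 2.11 (1.52 to 2.87) and 6.64 (5.55 to 7.89), so both antagonist libraries lay well below PBS and overlapped each other. The ratio over PBS was 0.257 (0.171 to 0.378) for A740003 and 0.318 (0.218 to 0.456) for A438079, while A740003 over A438079 was 0.807 (0.497 to 1.30). Its FPKM fell in the same proportion, at 0.64, 0.77 and 2.40, and the implied transcript length was 2692, 2716 and 2774 nt. Of all genes compared, 0.929% had a lower ratio with A740003 and 0.685% with A438079. The paralog PANX1 stood at 1.01 and 1.03 times PBS in the same libraries.

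**Figure D3:**
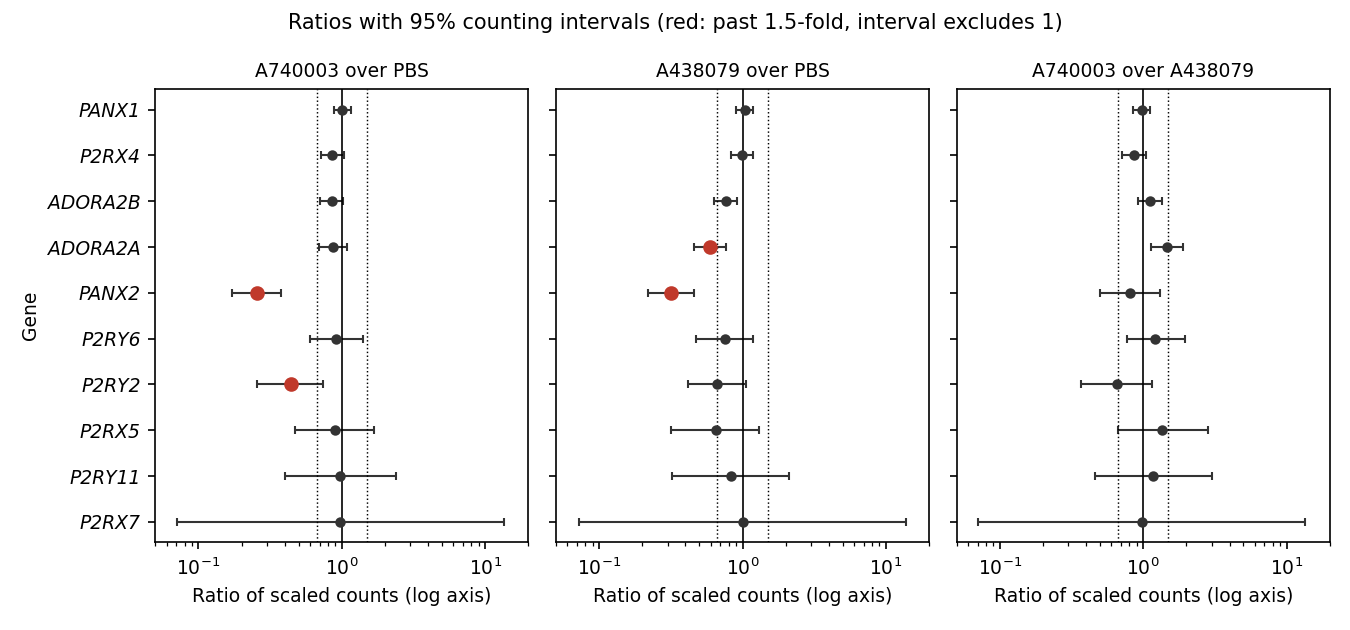
Ratios of scaled counts on log axes for A740003 over PBS, A438079 over PBS and A740003 over A438079; bars are exact conditional binomial 95% intervals, dotted lines 1.5-fold, and red points genes called lower. PANX2 is lower in both comparisons with PBS, at 0.257 and 0.318, and no gene is called between the antagonists.

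The low ratio of PANX2 goes with a property it shares with many genes that were lower in these libraries. Its longest transcript has a GC content of 66.3%, against a median of 47.5% over the compared genes. Of the 1426 compared genes at 60% GC or more, 38.8% were called lower with A740003 and 35.8% with A438079. With the trend of the ratios with transcript GC content and length removed, the log2 ratio of PANX2 moved from -1.94 to -1.30 with A740003 and from -1.64 to -1.05 with A438079. It stayed past 1.5-fold in both, with 1.16% and 1.43% of the other genes lower. The part of GC content in the result was not tested. P2RY2, at 59.1% GC, moved from -1.17 to -0.94 with A740003. ADORA2A, at 60.5%, moved from -0.74 to -0.45 with A438079 and was no longer called, and from -0.20 to 0.16 with A740003. P2RX4, at 46.0% GC, moved from -0.22 to -0.32 with A740003, and ADORA2B (43.8%) and PANX1 (48.9%) kept values of -0.24 and 0.01.

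**Figure D4:**
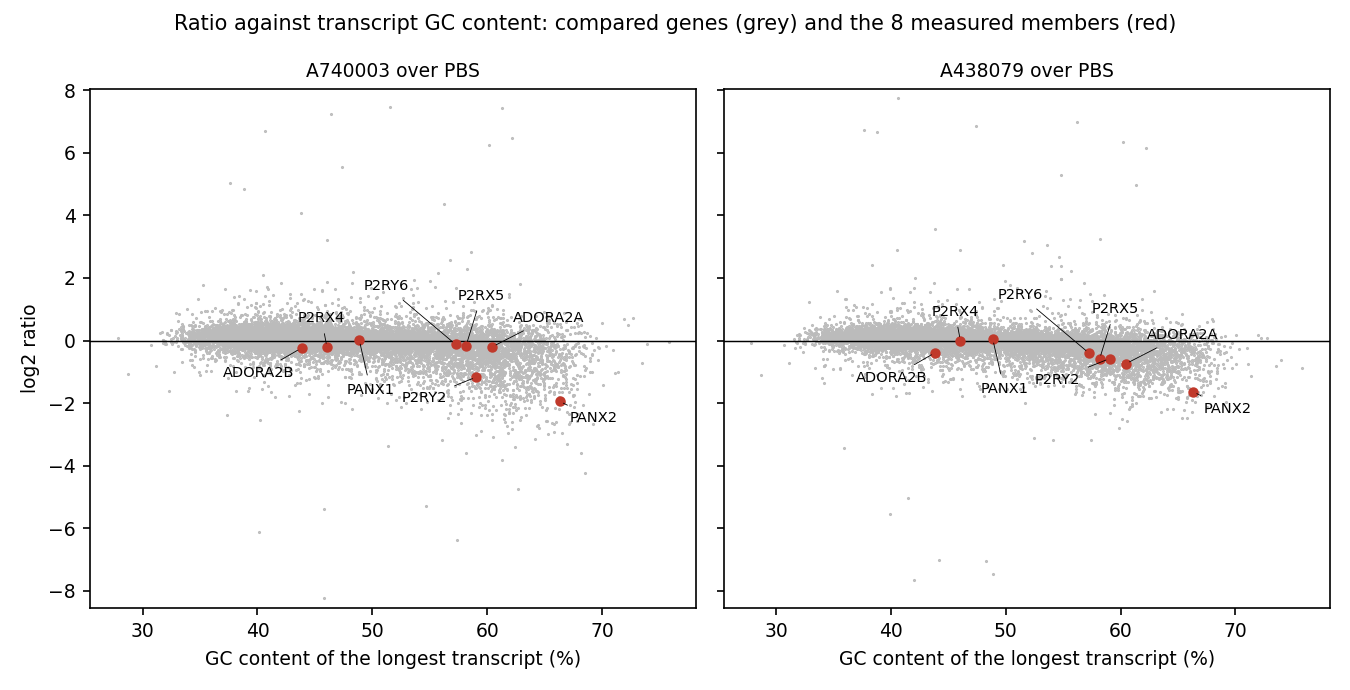
Log2 ratio over PBS of the compared genes (grey) against the GC content of their longest transcript in percent, with the 8 measured members in red. Of the genes at 60% GC or more, 77.7% lie below 0 with A740003 and 84.0% with A438079, and PANX2 lies at 66.3% GC with log2 ratios of -1.94 and -1.64.

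Per length, the order of levels by mean FPKM was ADORA2B (9.22), PANX1 (8.84), P2RX4 (8.37), ADORA2A (4.04), PANX2 (1.27), P2RY6 (1.21), P2RY11 (1.09), P2RX5 (0.67), P2RY2 (0.65) and P2RX7 (0.03). The median compared gene stood at 10.3 FPKM, so even the highest of the 10 genes was below it. The first 3 are not separated, since their ranges over the libraries overlap (7.95 to 10.8, 8.78 to 8.87 and 7.59 to 9.13 FPKM). ADORA2A, at 3.30 to 4.92 FPKM, lies apart from its neighbours on both sides. PANX2 (0.64 to 2.40 FPKM), P2RY6 (0.97 to 1.65) and P2RY11 (0.61 to 1.66) overlap, and the ranges of PANX2 and P2RY11 also reach those of P2RX5 (0.60 to 0.71) and P2RY2 (0.52 to 0.78), which overlap each other. P2RY6 lay above both of these. P2RX7 was far below all of them. With counts per kilobase of the longest transcript, PANX1 ranked 1 and ADORA2B 2, while P2RY2 moved up to 7 and P2RY11 down to 9.

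At the same dose and time, the antagonists were set against each other in all 10 genes, as the third of 3 pairs of treatments, and none of the 8 measured genes was called. Over all genes, 2.44% were called higher with A740003 than with A438079 and 2.81% lower, and between 1 and 30 CPM 4.18% and 4.78%. For PANX1, P2RX4 and ADORA2B the counts held the ratio within 0.855 to 1.11, 0.716 to 1.04 and 0.914 to 1.352. For ADORA2A the interval excluded 1, at 1.46 (1.13 to 1.90), but the ratio did not reach 1.5-fold. With its readthrough row added, that ratio was 0.961 (0.762 to 1.21). For P2RX7 the interval ran from 0.0706 to 13.4. These intervals do not show that the compounds act alike.

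The other receptors of the family were almost silent. Of 15 further receptor and pannexin genes, 13 had no counts in any library (P2RX2, P2RX3, P2RX6, P2RX6P, P2RY1, P2RY4, P2RY10, P2RY12, P2RY13, P2RY14, ADORA1, ADORA3 and PANX3), which allows up to 0.151 to 0.155 CPM at 3 counts. P2RX1 had 2 counts, in the A740003 library alone. Of the 15, only P2RY8, a receptor gene of the P2Y naming series, reached a mean of 1 CPM. It appears as 2 rows with the same values in each library. Summed, they gave 93 counts with A740003, 82 with A438079 and 156 with PBS, so both antagonist libraries were below PBS. The ratio was 0.581 (0.445 to 0.756) for A740003 and 0.527 (0.398 to 0.692) with A438079. With the GC and length trend given with PANX2 removed, which could be done for 1 of the 2 rows of P2RY8, the log2 ratios were -0.54, no longer called, and -0.67.

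Downstream of the P2Y receptors, 10 of 14 genes of the Gq and calcium arm were measured. With A740003, 4 were lower (GNA11, PLCB3, ITPR3 and RGS2) and 1 was higher (ITPR1), and with A438079 3 were lower (PLCB3, ITPR3 and RGS2), beside 10.7% lower and 3.14% higher, and 9.44% lower, of all genes. With the GC and length trend removed, 1 lower and 1 higher call were left with A740003 and 1 lower call with A438079. Of all 11906 genes in that setting, 801 were lower and 415 higher with A740003, and 583 lower with A438079. The median log2 ratios were -0.21 and -0.36, or -0.01 and 0.07 with the trend removed. ITPR3, a calcium release channel of the endoplasmic reticulum, had 242 and 317 counts with A740003 and A438079 against 623 with PBS, a ratio of 0.379 (0.325 to 0.440) and 0.510 (0.444 to 0.585). Once that trend was taken out, the log2 ratios of ITPR3 were -0.31 and -0.16. ITPR1, its paralog, went the other way, with a ratio of 1.63 (1.40 to 1.90) and 1.37 (1.17 to 1.60), and at 0.59 and 0.37 on the log2 scale with that trend removed. GNA11, a Gq-class subunit gene, had ratios of 0.583 (0.497 to 0.683) and 0.686 (0.589 to 0.798), and its sign turned, to 0.14 and 0.12 on the log2 scale, with the trend removed. PRKCD stood at 0.871 (0.735 to 1.03) and 0.763 (0.639 to 0.910) times PBS.

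In the Gs and cAMP arm, which the adenosine receptors feed, 11 genes were measured and 3 were lower with each compound (ADCY6, ADCY7 and ADCY9, all adenylyl cyclases), beside 10.7% and 9.44% of all genes. With the trend removed, 0 of the 11 were called with either compound. Of all 11906 genes in that setting, 801 were lower with A740003 and 583 with A438079. With 11 genes, a count of 0 is too few to set the arm apart from those shares. The median log2 ratios were -0.33 and -0.28, or -0.32 and -0.28 with the trend removed. ADCY9 had 108 and 147 counts against 244 with PBS, ratios of 0.432 (0.341 to 0.544) and 0.604 (0.489 to 0.744), and stood at -0.45 and -0.12 on the log2 scale with the GC and length trend removed. GNAS, the Gs subunit gene, stood at 0.737 (0.697 to 0.779) and 0.921 (0.873 to 0.971) times PBS, and at -0.05 and 0.25 on the log2 scale with the trend removed. Of the protein kinase A subunit genes, PRKACA stood at 0.740 (0.594 to 0.921) and 0.766 (0.614 to 0.952) times PBS. PRKACB stood at 1.39 (1.16 to 1.65) and 1.20 (0.997 to 1.44), the last interval including 1. Neither was called, and the other subunit genes of the list are not reported here.

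Among other ATP release routes, 11 of 17 genes were measured. SLC17A9, the vesicular nucleotide transporter gene, had 305 and 314 counts against 497 with PBS, ratios of 0.599 (0.517 to 0.692) and 0.633 (0.548 to 0.731), but stood at 0.09 and 0.00 on the log2 scale with the GC and length trend removed. SLC17A9 was called lower with both, LRRC8C with A740003, and LRRC8E was called higher with both. Of all genes, 10.7% were lower and 3.14% higher with A740003, and 9.44% lower and 1.63% higher with A438079. The median log2 ratios were -0.07 and -0.06, or 0.02 and 0.07 with the trend removed. ANO6, a scramblase and channel gene, stood at 1.26 (1.20 to 1.32) and 1.27 (1.21 to 1.34) times PBS. LRRC8B, a volume-regulated channel subunit gene, stood at 1.18 (1.06 to 1.31) and 1.33 (1.19 to 1.47). With the trend removed, the log2 ratios were 0.16 and 0.21 for ANO6 and 0.02 and 0.24 for LRRC8B. ABCC6, which promotes ATP release from hepatocytes, stood at 0.860 (0.742 to 0.995) and 0.921 (0.797 to 1.06), and on the log2 scale turned to 0.52 and 0.47 with the trend removed.

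Of 14 partners and effectors of P2X7, 8 were measured. None was called with A740003, and PYCARD, the inflammasome adaptor gene, was lower with A438079, beside 9.44% lower of all genes. With the trend removed, 2 were called higher with A740003 (PTPN6, at 0.61 on the log2 scale, and MYH9). Of all genes, 415 of 11906 were higher in that setting. The median log2 ratios were -0.05 and -0.09, or -0.04 and 0.04 with the trend removed. PTPN6 stood at 1.38 (1.12 to 1.70) and 1.18 (0.944 to 1.47) times PBS, and MYH9 at 0.787 (0.752 to 0.823) and 0.863 (0.825 to 0.902). MYH9, a myosin heavy chain gene, turned to 0.69 and 0.53 on the log2 scale with the trend removed. Of 12 measured genes of ATP and adenosine breakdown and uptake, ALPL was lower with A740003 and SLC29A2 with A438079. The shares of all genes called lower were 10.7% and 9.44%. ADA, adenosine deaminase, stood at 0.797 (0.648 to 0.978) and 0.809 (0.658 to 0.994) times PBS, ENTPD1 at 1.20 (1.03 to 1.39) and 1.27 (1.09 to 1.47), ENPP1 at 1.11 (1.05 to 1.19) and 1.20 (1.12 to 1.28), and ENPP3 at 1.31 (1.17 to 1.47) and 1.20 (1.07 to 1.355). The last 3 encode enzymes that split extracellular nucleotides. With the trend removed, the log2 ratios were 0.08 and 0.18 for ENTPD1, -0.03 and 0.11 for ENPP1 and 0.31 and 0.16 for ENPP3. For ADA they were -0.32 and -0.27. The median log2 ratios of the 12 genes were -0.14 and -0.16, or -0.01 and -0.02 with the trend removed.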

How the data were processed

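The authors deposited expected counts (estimates that need not be whole) and FPKM values per gene, for 3 HepG2 libraries; per the labels' protocols, an RNeasy kit gave the RNA and a SMARTer mRNA kit the libraries. The submitters' processing notes name GRCm38, a mouse build, although the rows are human genes; no aligner, counter, annotation or strand setting was found, each being not given in the sources used here. Rows without an Ensembl identifier (116) hold 0.0775% to 0.0853% of counts and stayed in the totals.

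The design assumed whole counts; the expected counts were rounded, then scaled by the TMM factors of edgeR 4.0.16 under R 4.3.3; 1 CPM was 19.39 to 19.91 counts. Log2 ratios used a pseudocount of 0.5 counts. Intervals are exact (scipy 1.17.1), at 95%. The GC and length trend was the median of the 201 nearest genes, known for 97.0% of the genes compared. Levels were ordered by FPKM. Loci, exons and transcripts came from GENCODE 29 by gene identifier and promoters from RefSeq. The calling rule was run on simulated counts that held counting error only. Such counts cannot show how libraries of the same treatment vary.

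Named genes were all 10 members, measured locus partners and other receptors, and up to 4 members of each other list at 5 CPM or more with an interval excluding 1 over PBS and the largest ratios; genes called lower or higher in a list were named after their values were seen, and some genes that the rule names are not reported here. The members and lists were chosen with earlier results of these data known. The 1 to 30 CPM range and the 60% GC limit were set after the data were seen. Alternatives tried were upper quartile scaling, size factors from DESeq2 1.42.0, totals alone, other filters, folds and intervals, FPKM with pseudocounts of 0.1 and 1, counts not rounded, readthrough sums and the trend.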

Additional observations from a re-analysis of the deposited data

How the results depend on the processing

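The counts of members called were recomputed under 13 alternatives in each of 3 comparisons, and 30 of 39 values stayed within 1.5 times the reported count. With A740003 over PBS, 2 members were called, and 0 at a mean of at least 5 CPM, where PANX2 and P2RY2 are filtered out, and 1 (PANX2) with FPKM at a pseudocount of 1. With FPKM at a pseudocount of 0.1 the count was also 2, but the genes were PANX2 and P2RY6. With A438079 over PBS, 2 were called, and 1 at a mean of at least 5 CPM (ADORA2A), with a 2-fold limit (PANX2), with FPKM at a pseudocount of 1 (PANX2), with readthrough counts added (PANX2) and without the GC and length trend (PANX2), and 3 at any fold whose interval excludes 1 (with ADORA2B). Between the antagonists, 0 were called, and 1 with any fold whose interval excludes 1 (ADORA2A) and with readthrough counts added (P2RY11). PANX2 was called in both comparisons with PBS under every alternative that compared it. Some single ratios crossed 1, and these are examples. That of ADORA2A with A438079 went from 0.596 to 1.13 when its readthrough row and SPECC1L were summed with it. This step was chosen after the data were seen. SPECC1L held 1806 of the 1958 counts in that A438079 sum, so the value of 1.13 is largely that of SPECC1L. With the readthrough row alone added, the ratio was 0.906, still below 1. With the trend removed, that of ADORA2A with A740003 went from 0.871 to 1.12. With readthrough counts added, that of P2RX5 went from 0.891 to 1.39 with A740003 and from 0.653 to 1.46 with A438079. The ratio of P2RY2 over PBS was 0.827 with A740003 and 1.17 with A438079 by FPKM at a pseudocount of 0.1. The list counts were recomputed too, an addition made with the data known: 80 moved by over 1.5 times and 172 did not. Over all genes, 1313 were lower with A740003 and 1158 with A438079; these became 801 and 583 without the GC and length trend, 666 and 525 at a mean of at least 5 CPM, 670 and 459 at 2-fold, and 3273 and 2842 at any fold. No paired analysis was possible because each treatment has 1 library. Depth limits P2RX7, P2RY11 and P2RX5 most.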
